A study of Mus musculus with 4 samples.

Results

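Tnfsf11, Tnfrsf11a and Tnfrsf11b encode RANKL, its receptor RANK and the soluble decoy receptor osteoprotegerin. The 3 genes were taken by symbol from the 27998 genes listed in a single-cell transcriptome study of the mouse mammary gland, and each symbol matched 1 row. The cells came from FVB/NJ mice, with no treatment named in the labels, and the glands were dissociated and sorted as total epithelium (Lin-CD24+, negative for blood and endothelial lineage antigens). The stages were puberty (5 weeks of age), adult estrus and adult diestrus (10 weeks of age). Adult mice were staged by vaginal cytology, and the glands of mice in the same phase were pooled. Single cells were captured on a droplet platform (10x Genomics Chromium) that reads the 3′ end of transcripts and counts each captured molecule.

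RANKL is a TNF family ligand that binds RANK on neighboring cells. RANK recruits TRAF adaptors and activates NF-kB, and osteoprotegerin binds RANKL and keeps it from the receptor. In bone this trio controls osteoclast formation. In the mammary gland RANKL is known as a paracrine mediator of progesterone, made by hormone receptor-positive luminal cells and acting on basal cells and luminal progenitors that carry RANK. Estrus follows the estrogen peak of the ovarian cycle and diestrus is its progesterone-rich phase.

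Tnfsf11 (ENSMUSG00000022015) lies on the minus strand of chromosome 14 at 78277445 to 78308043 in GRCm38, Tnfrsf11a (ENSMUSG00000026321) on the plus strand of chromosome 1 at 105780718 to 105847981, and Tnfrsf11b (ENSMUSG00000063727) on the minus strand of chromosome 15 at 54250619 to 54278484. All are protein-coding, and 0 annotated genes overlapped any of them. The 250 bases upstream of the start of Tnfsf11 are shown because this gene had the largest difference between libraries of the 3. They are given from RefSeq (GRCm38.p6, chr14:78308044-78308293, minus strand, 5′ to 3′), and the capitals mark a TATAAA hexamer read on the opposite strand (TTTATA), which began 32 bases before the start.

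Tnfsf11: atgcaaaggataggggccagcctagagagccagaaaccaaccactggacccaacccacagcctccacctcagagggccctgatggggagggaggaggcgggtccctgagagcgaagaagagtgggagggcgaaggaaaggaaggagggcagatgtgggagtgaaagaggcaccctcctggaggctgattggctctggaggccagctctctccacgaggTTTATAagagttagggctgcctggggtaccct

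TATAAA was present on either strand in 12.4% of 32851 upstream windows of the same length. TGTTCT, the hexamer of progesterone and glucocorticoid receptor elements, was searched on both strands (AGAACA on the other) and was in 16.1% of windows. These letters were in neither the Tnfsf11 nor the Tnfrsf11a window. The GC content was 60.4% in the Tnfsf11 window and 73.6% in that of Tnfrsf11a, against a median of 52.4%.

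The 2 puberty tables shared 5387 barcodes, 99.8% of those in the smaller table, and their cell totals correlated with r = 0.997. They were therefore counted as 1 library, read from the first table over the shared barcodes, which left 1 library per stage and no replicate library at any stage. Other pairs of tables shared 13 to 24 barcodes. The first puberty table held 25365324 counts, that of estrus 10962454 counts over 2729 barcodes, and that of diestrus 11868593 counts over 2439 barcodes. Cells were classed as basal, as luminal progenitors (LP) or as mature luminal (ML), and these classes numbered 1121, 1759 and 2172 in puberty, 1308, 473 and 785 in estrus, and 1051, 566 and 679 in diestrus. Each lineage had a count for 8 of 8 of its own markers in every library. The classes were seeded from these markers, so this is no independent check. It does not tell lineages apart either, since basal cells of puberty also had counts for 8 of 8 LP and 8 of 8 ML markers. Of 8 immune markers, Cd3e and Cd3g had no count in basal, LP or ML cells of any library. Others did, from 1 marker in ML cells of diestrus to 5 in LP cells of puberty. Median counts per cell ran from 2541 to 3389 in basal, 3179 to 4049 in LP and 4151 to 4690.5 in ML cells.

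The ligand, the receptor and the decoy receptor were held by different lineages. Of 372 Tnfsf11 counts over the 3 libraries, 87.9% were in ML cells and 8.87% in intermediate luminal cells (Lum Int), which lie between LP and ML. Of 314 Tnfrsf11a counts, 55.1% were in basal cells, 35.4% in LP cells and 2.87% in ML cells. Of 411 Tnfrsf11b counts, 96.6% were in basal cells. All 3 genes were sparse, and none had a count in more than 18.3% of the cells of any lineage. Levels below are counts summed over the cells of a lineage and scaled to a common total with TMM factors (CPM, counts for each 1e6). Intervals are exact 95% intervals, Poisson for counts, Clopper-Pearson for shares and conditional for ratios, and they cover counting error only. Where a count was 0, the limit given in the text is that of 3 counts or 3 cells, and folds written as at least a value are taken against it.

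**Figure D1:**
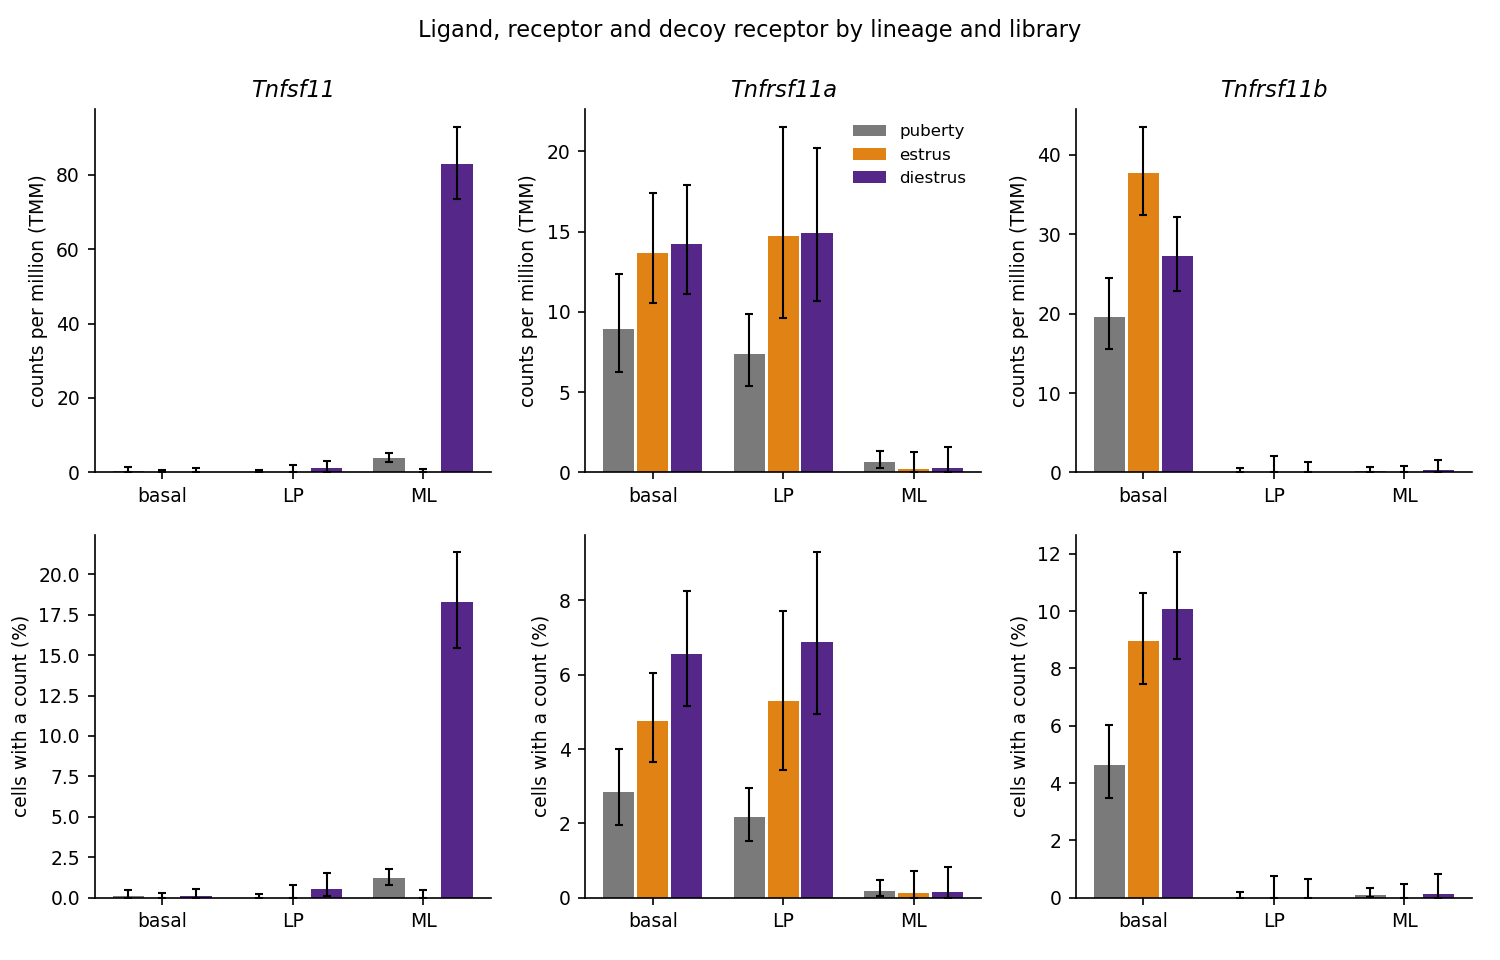
Level (CPM with TMM factors, upper row) and share of cells with at least 1 count (percent, lower row) of Tnfsf11, Tnfrsf11a and Tnfrsf11b in basal, LP and ML cells of the puberty, estrus and diestrus libraries. Bars are single libraries and lines are exact 95% intervals for counting error. Tnfsf11 stood at 82.8 CPM in diestrus ML cells, Tnfrsf11a was in basal and LP cells of each library, and Tnfrsf11b was at 0 in LP cells.

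The first comparison was between lineages within the same libraries. Counts were summed per lineage and library into 9 profiles and fitted with edgeR's quasi-likelihood test, with library as a block. Of 11615 genes tested, 40.3% differed between ML and LP cells, 55.6% between ML and basal cells and 45.7% between LP and basal cells at an adjusted p under 0.05. The p-values measure only the spread between these 3 libraries, which differ in stage. All 3 members passed the filter on low counts, but Tnfsf11 and Tnfrsf11b passed through the lineage that held them, so that they passed is no sign of a difference.

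Tnfsf11 was a transcript of the mature luminal lineage. In ML cells it had 41 counts in puberty, 0 in estrus and 286 in diestrus, or 3.78 CPM (2.71 to 5.13), 0 CPM (up to 0.686) and 82.8 CPM (73.4 to 92.9). In basal cells the same libraries gave 1, 0 and 1 counts, and in LP cells 0, 0 and 3. ML cells were thus above both other lineages in puberty and diestrus, and no lineage of the estrus library had a count. Within diestrus, the ML level was 75.9 times that in LP cells (25.7 to 370) and 414 times that in basal cells (73.6 to 16390). Within puberty it was at least 7.53-fold higher than in LP cells, taken against 3 counts, and 15.2 times that in basal cells (2.58 to 615).

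In the fit over libraries, Tnfsf11 was higher in ML than in LP cells (log2 difference 6.22, SE 0.614, edgeR adjusted p = 4.16e-05) and than in basal cells (7.40, SE 0.665, adjusted p = 1.26e-05), in 2 of 3 libraries. Without the diestrus library Tnfsf11 did not pass the filter. With no filter and without that library it was called higher in ML than in LP cells (edgeR adjusted p = 0.00416). Against basal cells the log2 difference was 3.69 (edgeR adjusted p = 0.0357). The fold against LP cells is not given, since each LP sum was then at 0. These calls rest on the puberty library alone, because Tnfsf11 was at 0 in each lineage of estrus. With DESeq2 on all libraries the log2 differences were 5.13 (adjusted p = 0.0871) against LP and 5.02 (adjusted p = 0.0735) against basal cells, so neither call held.

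Detection of the ligand differed between the libraries. In puberty 26 of 2172 ML cells had a Tnfsf11 count (1.20%, 0.783% to 1.75%), in estrus 0 of 785, which allows a share of up to 0.382%, and in diestrus 124 of 679 (18.3%, 15.4% to 21.4%). The background shares in LP cells were 0 of 1759, 0 of 473 and 3 of 566 (0.530%), at median depths of 3724, 3179 and 4049 counts per cell against 4690.5, 4151 and 4338 in ML cells. With each cell thinned to 2000 counts, the ML shares were 0.491% in puberty (10 of 2038 cells), 0 of 718 cells in estrus and 10.7% in diestrus (66 of 614 cells). The order of the libraries was the same with and without thinning, and the puberty share was above that of LP cells in both.

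The Tnfsf11 level in diestrus ML cells was 21.9 times that in puberty (15.7 to 31.1) and at least 121-fold higher than in estrus, against 3 counts over the estrus ML cells (the exact lower limit of this ratio was 97.4). The puberty level was at least 5.51-fold higher than in estrus. At least 2-fold higher levels in diestrus than in puberty were seen for 4.21% of the genes compared in ML cells, and levels at least 2-fold lower in estrus than in puberty for 7.32%. With 1 library per stage these ratios have no replicate check and no test, and a difference of stage cannot be told apart from one of pooled animals or of library. Of 9741 genes compared between diestrus and estrus ML cells, 5.23% were at least 2-fold higher in diestrus. Tnfsf11 was rank 3 of them by fold or its lower bound, after Calca, which encodes calcitonin and its related peptide (1175 counts against 0), and H19, an imprinted noncoding RNA (103 against 1). Library totals in place of TMM moved the median of all genes by more than 0.1 on the log2 scale in several pairs, for example to -0.22 from -0.02 between diestrus and estrus ML cells and to 0.29 from -0.06 between diestrus and puberty LP cells.

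Tnfsf11 counts were spread over many cells. Of the 124 positive ML cells of diestrus, 53 had 1 count and 71 had 2 or more, and the highest cell had 9. In puberty 18 of the 26 positive cells had 1 count, and the highest had 6. Lum Int cells held the ligand as well, with a count in 15 of 94 cells of diestrus (16.0%, 9.22% to 25.0%), 1 of 110 of estrus and 1 of 222 of puberty. These cells were deeper than ML cells, with a median of 7157 counts in diestrus, and after thinning to 2000 counts the diestrus share was 6.59% (2.46% to 13.8%) against 10.7% in ML cells. In CPM without TMM factors (raw CPM), the diestrus level was 42.5 in Lum Int and 83.9 in ML cells. The estrus library had 1 Tnfsf11-positive cell in all, with 2 counts, and it was one of these intermediate cells.

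Tnfrsf11a, the receptor gene, was present in basal and LP cells of every library and near 0 in ML cells. Basal cells had 36 counts in puberty, 66 in estrus and 71 in diestrus, or 8.95, 13.7 and 14.2 CPM. LP cells had 44, 26 and 41 counts, or 7.37, 14.7 and 14.9 CPM, and ML cells 7, 1 and 1 counts, or 0.646, 0.229 and 0.289 CPM. The ML value was below both other lineages in 3 of 3 libraries, and the levels of basal and LP cells were close in each.

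Between lineages, Tnfrsf11a was lower in ML than in LP cells (log2 difference -4.42, SE 0.410, edgeR adjusted p = 7.09e-06) and than in basal cells (-4.47, SE 0.400, adjusted p = 3.05e-06). Between LP and basal cells a difference was not detected (log2 difference -0.044, SE 0.273, adjusted p = 0.914). The level in LP cells was 0.824 times that in basal cells in puberty (0.518 to 1.32), 1.08 times in estrus (0.656 to 1.72) and 1.05 times in diestrus (0.696 to 1.56). These intervals span ratios from 0.518 to 1.72, so that a difference of that size was not detectable at this depth. Lum Int cells had a Tnfrsf11a count in 1.35% (puberty), 4.55% (estrus) and 5.32% (diestrus) of cells.

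Among basal cells of puberty, estrus and diestrus, 2.85% (1.96% to 4.01%), 4.74% (3.65% to 6.04%) and 6.57% (5.14% to 8.24%) had a Tnfrsf11a count. In LP cells these shares were 2.16% (1.53% to 2.95%), 5.29% (3.45% to 7.70%) and 6.89% (4.95% to 9.30%). The shares in ML cells, the lineage with the least, were 0.184%, 0.127% and 0.147% at a higher median depth. After thinning to 2000 counts, basal shares were 1.85%, 3.16% and 3.03%, and LP shares 1.25%, 3.58% and 2.21%. The puberty share was the lowest in both lineages on each scale, whereas the higher unthinned share of diestrus over estrus was not kept after thinning.

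As a level, basal Tnfrsf11a in diestrus was 1.59 times that in puberty (1.05 to 2.44) and in estrus 1.53 times (1.003 to 2.36). In LP cells the corresponding ratios were 2.02 (1.29 to 3.17) and 1.99 (1.18 to 3.31). Diestrus and estrus differed by less than their counting error, with ratios of 1.04 in basal (0.733 to 1.48) and 1.01 in LP cells (0.605 to 1.73). Of all genes compared in LP cells, 5.61% were at least 2-fold higher in diestrus and 5.34% in estrus than in puberty. In basal cells 5.77% were at least 2-fold higher in diestrus than in puberty. The 2 puberty tables gave Tnfrsf11a unequal counts, 93 in the first and 42 in the second, and with the second table the LP ratios were 2.79 and 2.68 and the basal ratios 2.20 and 2.12.

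Tnfrsf11b, the decoy receptor gene, was a basal transcript. Basal cells had 79 counts in puberty, 182 in estrus and 136 in diestrus, or 19.6 CPM (15.5 to 24.5), 37.7 CPM (32.4 to 43.6) and 27.2 CPM (22.8 to 32.2). LP cells had 0 counts in each library, and ML cells had 2, 0 and 1. Basal cells were above both luminal lineages in 3 of 3 libraries. The basal level was at least 39.1-fold that of LP cells in puberty, 22.2-fold in estrus and 25.0-fold in diestrus, each against 3 counts. Against ML cells it was 106 times higher in puberty (28.5 to 894), at least 54.9-fold higher in estrus and 94.1 times higher in diestrus (16.6 to 3742).

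Tnfrsf11b was lower in ML than in basal cells (log2 difference -7.09, SE 0.432, edgeR adjusted p = 9.03e-07) and lower in LP than in basal cells (adjusted p = 2.63e-06). The fitted fold of the latter is not given, since every LP sum was at 0. A Tnfrsf11b count was found in 52 of 1121 basal cells of puberty (4.64%, 3.48% to 6.04%), in 117 of 1308 of estrus (8.94%, 7.45% to 10.6%) and in 106 of 1051 of diestrus (10.1%, 8.33% to 12.1%). The LP background was 0 of 1759, 0 of 473 and 0 of 566 cells, which allow shares of up to 0.171%, 0.634% and 0.530%. Thinned to 2000 counts, basal cells had a count in 26 of 867 cells of puberty, 7.06% of cells of estrus and 5.13% of diestrus.

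The highest level of the decoy receptor was in estrus. The basal level in estrus was 1.92 times that in puberty (1.47 to 2.53), the level in diestrus was 1.39 times that in puberty (1.04 to 1.85), and diestrus stood at 0.722 of estrus (0.574 to 0.907). The CPM and the thinned shares had the same order, with estrus above diestrus and puberty lowest. The unthinned share put diestrus first, but basal cells had a median of 3389 counts there against 2541 in estrus, and no order was read from it. Of 10538 genes compared, 9.40% were at least 2-fold higher in estrus than in puberty basal cells, and Tnfrsf11b was not among them with TMM factors. Its ratio was 2.13 with library totals, 2.22 without cycling cells and 2.02 with lineages taken from clusters, so its side of the 2-fold mark depended on these choices.

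The positions of single cells on the luminal to basal and LP to ML scales showed the same arrangement. Each scale was set by the share of lineage signature genes detected in a cell, with the members kept out of the signatures. Cells with Tnfsf11 gathered at the ML end, cells with Tnfrsf11b at the basal end, and cells with Tnfrsf11a at the basal and LP ends. In diestrus Tnfsf11-positive cells also lay along the stretch between LP and ML. Few ML cells were near a class border, with 41 of 2172, 16 of 785 and 15 of 679 in puberty, estrus and diestrus within 0.05 of one. A larger part of the Lum Int cells was, with 54 of 222, 31 of 110 and 20 of 94, so that class is less sharply drawn.

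**Figure D2:**
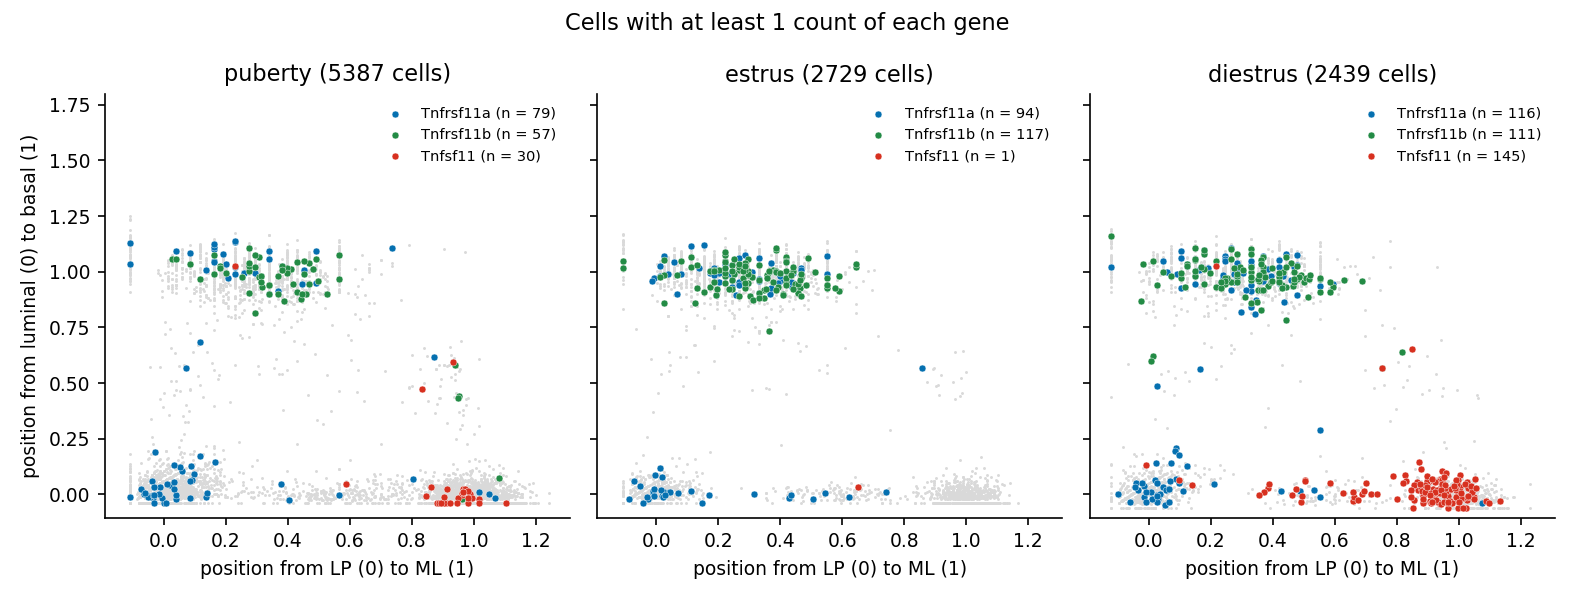
Position of each cell from LP (0) to ML (1) on the x axis and from luminal (0) to basal (1) on the y axis, without units, for the puberty, estrus and diestrus libraries. Colored points have at least 1 count of Tnfsf11 (30, 1 and 145 cells), Tnfrsf11a (79, 94 and 116 cells) or Tnfrsf11b (57, 117 and 111 cells), and gray points are the other cells.

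Ligand and receptor counts were not found in the same cell. Of 30, 1 and 145 Tnfsf11-positive cells in puberty, estrus and diestrus, 0 had a Tnfrsf11a count in any library. ML cells made up 26 of the 30 in puberty and 124 of the 145 in diestrus. Tnfrsf11a had a count in only 0.184% and 0.147% of all ML cells of these libraries. In Lum Int cells of diestrus, which held 15 of the 145, that share was 5.32%. Few or no shared cells were therefore likely from lineage alone, and exclusion within single cells was not tested. At these depths a cell can hold a transcript without a count of it. The receptor and the decoy receptor were found together in some basal cells. Of the Tnfrsf11a-positive basal cells, 4 of 32 had a Tnfrsf11b count in puberty (12.5%, against 4.64% of all basal cells), 5 of 62 in estrus (8.06% against 8.94%) and 7 of 69 in diestrus (10.1% against 10.1%).

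Within the ML lineage Tnfsf11 was uneven. Cells of each library were clustered without the members and the pathway lists, and clusters were named from the lineage markers. The following CPM are relative to the cluster's own counts and are a description. In puberty 25 of 386 cells had a Tnfsf11 count (6.48%, 16.9 CPM) in the ML cluster with Wfdc12 and Sftpd among its leading genes, and 0 or 1 cell in each of the other ML clusters. In diestrus the counts were in the ML cluster led by Agtr1a, Calca and Hba-a1, with 94 of 284 cells (33.1%, 141 CPM), and in that led by Fmo1, Sprr1a and Wfdc12, with 26 of 85 cells (30.6%, 79.0 CPM). The remaining diestrus ML cluster, led by Ly6d, Fxyd2 and Fgb, had 1 of 318 cells. Median counts per cell were 5368 and 9274 in the clusters with the ligand and 3485.5 in the other. The estrus ML clusters had 0 of 350, 0 of 267 and 0 of 138 cells. A diestrus cluster that the markers left unnamed, led by Apod, Cck, Slc12a2 and Wnt4, had 17 of 99 cells (17.2%, 57.3 CPM).

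**Figure D3:**
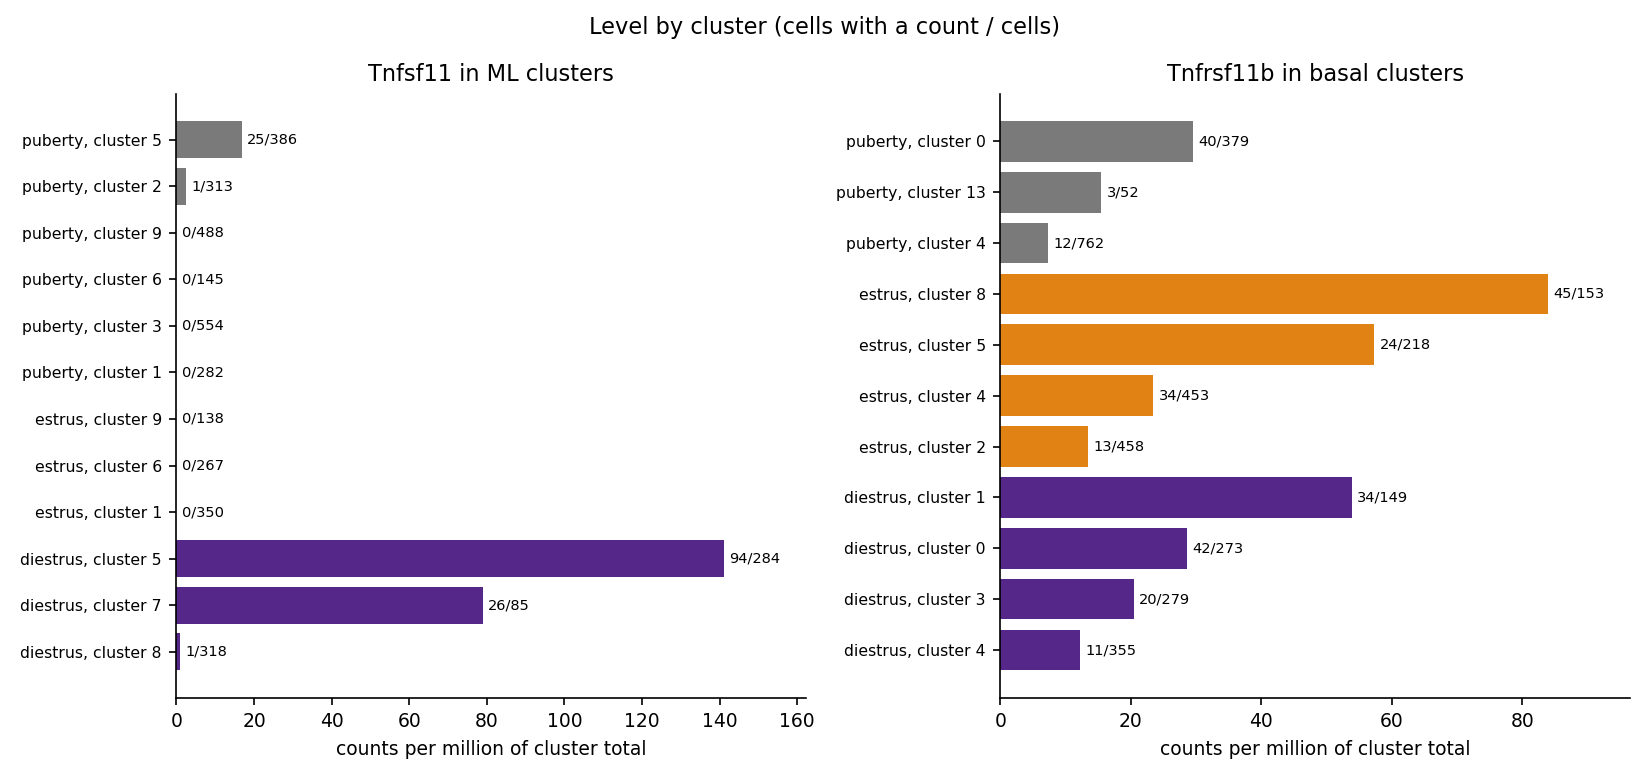
Level of Tnfsf11 in the ML clusters (left) and of Tnfrsf11b in the basal clusters (right) of each library, in CPM of the cluster's own counts, each cluster given by library and number. Puberty cluster 13 (52 cells) was named basal from the markers, but 0% of its cells were in the basal class. Bars are single clusters and the labels give cells with a count and all cells, from 94 of 284 for Tnfsf11 and 45 of 153 for Tnfrsf11b in their highest clusters to 0 for Tnfsf11 in each estrus ML cluster.

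Tnfrsf11b was uneven within the basal lineage. Its level was highest in the clusters with Serpinb11, A230065H16Rik and Serpinf1 among their leading genes, with Tnfrsf11b in 40 of 379 cells (puberty, 29.5 CPM), 45 of 153 cells (estrus, 83.9 CPM) and 34 of 149 cells (diestrus, 53.8 CPM). Median counts per cell in these clusters were 5407, 7400 and 5439, against 1986.5 to 7124 in the other basal clusters of at least 100 cells. Those other clusters ran from 7.35 CPM in puberty to 57.3 CPM in estrus, the last in a cluster led by Chil1 and Ccl2. In diestrus the cluster led by Ctgf, Fhod3 and Fbxl22 had the lowest Tnfrsf11b level, 12.2 CPM. The same cluster had the highest basal Tnfrsf11a level of that library, 25.5 CPM against 11.5 to 13.6 CPM in the other basal clusters. The summed level of 6 fibroblast markers was 616 raw CPM in basal cells with Tnfrsf11b and 222 in those without in puberty, 537 and 252 in estrus, and 293 and 243 in diestrus. Of these markers, 1, 4 and 3 had a count in the positive cells, Pdgfra had none in any library, and in puberty the marker with counts was Dcn. Their part in the Tnfrsf11b result was not tested.

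The genes detected with the ligand were compared among the ML cells of diestrus after thinning to 2000 counts, in a separate draw with 67 Tnfsf11-positive and 547 negative cells. In this comparison and those like it for the other members, cells were grouped by the thinned count. A cell whose deposited count of the member was lost in thinning is thus among the negative cells. In the deposited counts, 124 ML cells of diestrus had Tnfsf11. Cells with the ligand had deposited totals of 6623 counts in the median, against 4405 in the others. The largest differences in the share of cells with a count were for Hba-a1, alpha globin (65.7% with the ligand against 29.3% without), Rgs2, a regulator of G protein signaling (59.7% against 23.9%), and Agtr1a, an angiotensin receptor (64.2% against 30.2%). Calca (40.3% against 12.4%), Areg, the EGF receptor ligand amphiregulin (89.6% against 62.5%), and Plac8 (62.7% against 35.8%) followed. The reverse was seen for Ly6d (17.9% against 63.8%), Anxa1, annexin A1 (38.8% against 70.9%), Tmem158 (28.4% against 60.7%) and Fam25c (7.46% against 35.1%). These genes were picked for their difference in the same cells, so the shares are a description.

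**Figure D4:**
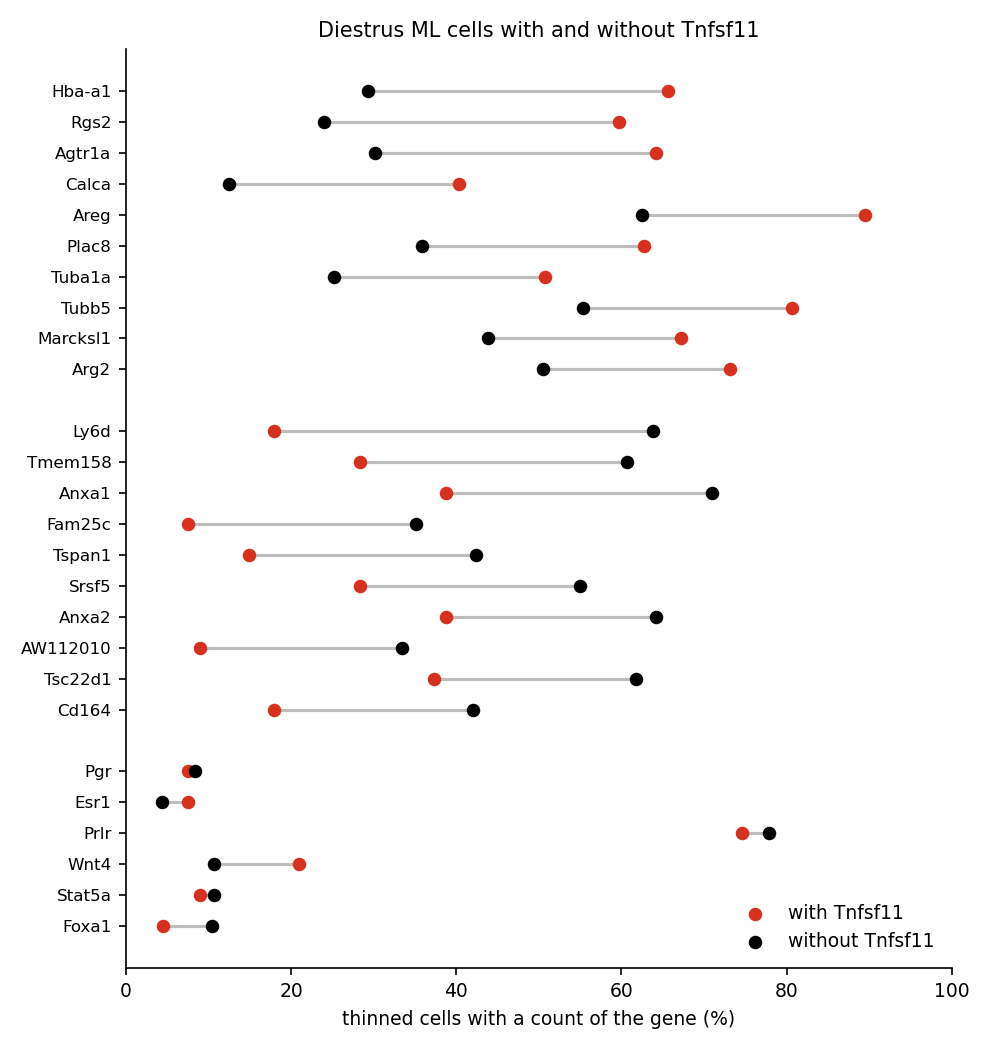
Share of thinned diestrus ML cells with a count of each gene (percent, x axis) among 67 cells with and 547 cells without a Tnfsf11 count after thinning. The upper and middle blocks are the 10 genes with the largest difference in each direction, and the lower block shows 6 hormone-sensing genes, of which Pgr stood at 7.46% and 8.41%.

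The same genes were then read in the puberty library, which had not been used to pick them. With 11 thinned Tnfsf11-positive ML cells, 6 of the 10 higher genes and 9 of the 10 lower genes had a difference of the same sign. Agtr1a differed by 38.0 percentage points, Plac8 by 31.7 and Ly6d by -49.3 (with minus without the ligand). Hba-a1 differed by -0.233 points and Rgs2 by -0.727. For Tnfrsf11a and Tnfrsf11b in basal cells, between 3 and 8 of the 10 genes per direction kept their sign in the other libraries. That range lies on both sides of an even split. Slpi, a secreted protease inhibitor, was picked in puberty and estrus. It differed there by -33.4 and -23.7 points between basal cells with and without Tnfrsf11b. The difference in diestrus, where Slpi was not picked, was -12.6 points. Other genes picked in more than 1 library for Tnfrsf11b changed sign. Errfi1 differed by -31.3 points in puberty and 19.2 in diestrus, and Igfbp2 by 18.7 in estrus and -18.7 in diestrus. Ncl, nucleolin, was picked in estrus and diestrus, with -28.2 and -28.0 points between basal cells with and without Tnfrsf11a. Its difference in puberty, where it was not picked, was -4.30 points.

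Receptor genes of hormone-sensing cells showed smaller differences between diestrus ML cells with and without a thinned count of the ligand. Pgr, the progesterone receptor, had a count in 7.46% of cells with Tnfsf11 (2.47% to 16.6%) and 8.41% without (6.22% to 11.1%). Esr1, the estrogen receptor, was in 7.46% (2.47% to 16.6%) and 4.39% (2.83% to 6.46%), and Prlr, the prolactin receptor, in 74.6% and 77.9%. Pgr and Esr1 each rested on 5 of 67 cells with the ligand, so a moderate difference could not be told from none. Wnt4, a progesterone-induced Wnt ligand, was in 20.9% (11.9% to 32.6%) and 10.6% (8.15% to 13.5%). Foxa1 went the other way, in 4.48% (0.933% to 12.5%) and 10.4% (7.99% to 13.3%). Stat5a was in 8.96% and 10.6%, and Stat5b in 0% and 2.19%. Cells with at least 3 of 10 cell cycle genes made up 8.96% and 7.13%.

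Globin detection moved with the ligand. Without thinning, Hba-a1 had a count in 107 of 124 Tnfsf11-positive and 190 of 555 negative ML cells of diestrus (86.3% and 34.2%), and Hba-a2 in 34 and 39 cells. In puberty Hba-a1 had a count in 8 of 26 positive cells (30.8%, 391 raw CPM) and in 14.6% of negative cells (57.1 raw CPM), a difference that the shares after thinning did not show. Over all ML cells of puberty, estrus and diestrus, Hba-a1 was in 321 of 2172, 64 of 785 and 297 of 679. Hbb-bs, the beta globin of the red cell list, had 0 counts in the ML cells of each library, so that 1 of the 3 red cell markers was absent throughout. The summed level of the red cell list in ML cells was 63.0 raw CPM (puberty), 24.0 raw CPM (estrus) and 543 raw CPM (diestrus). Of 8 immune markers 0 had a count in Tnfsf11-positive ML cells of puberty or diestrus, and of 6 fibroblast markers only Dcn had one. The summed fibroblast level was 1033 raw CPM in ML cells with the ligand and 614 in those without in diestrus, and 511 and 326 in puberty. Their part in the Tnfsf11 result was not tested.

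The rest of the pathway was read from lists chosen with earlier results of these data known. For the adaptors and kinases downstream of RANK, 16 of 16 genes were tested. Of these, 4 were higher in LP and 5 higher in basal cells between those lineages, where 22.4% and 23.3% of all genes were called in these directions, and the median log2 difference was -0.20 against -0.0042 over all genes. Traf5 was higher in basal cells (log2 difference LP against basal -4.48, SE 0.339, edgeR adjusted p = 1.12e-06, 3 of 3 libraries), at 22.4, 36.0 and 34.8 CPM. Traf6, the adaptor known to link RANK to NF-kB, was higher in LP cells (1.20, SE 0.287, adjusted p = 0.00522), and so was Gab2, a docking protein bound to RANK (5.84, SE 0.988, adjusted p = 0.00055). Gab2 had 30, 16 and 11 counts in LP cells of puberty, estrus and diestrus against 0, 0 and 1 in basal cells. The size of its fold is thus set near the floor. Between ML and LP cells 2 genes were up in ML and 4 in LP cells, where 19.1% and 21.2% of all genes were called.

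NF-kB subunits and their inhibitors were mainly higher in LP cells. Of 12 genes tested, 9 were higher in LP and 0 higher in basal cells, where 22.4% and 23.3% of all genes were called. The median log2 difference was 0.84 against -0.0042 over all genes. Between LP and ML cells 10 were higher in the former and 1 in the latter, where 21.2% and 19.1% of all genes were called. The median for ML against LP was -1.13, and -0.032 over all genes. The largest changes were in feedback inhibitors. Tnfaip3, which encodes A20, was at 37.2, 49.2 and 28 CPM in LP cells of puberty, estrus and diestrus, and was higher there than in ML (log2 difference -3.76, edgeR adjusted p = 5.24e-07) and in basal cells (2.75, adjusted p = 3.38e-06). Nfkbia, which encodes the inhibitor IκBα, was higher in LP than in basal cells (2.56, adjusted p = 3.73e-05) and than in ML cells (-1.93, adjusted p = 0.000327). Between basal and ML cells 2 were higher in ML and 4 higher in basal cells, against 25.7% and 29.9% of all genes. Basal and LP cells, whose Tnfrsf11a levels were not told apart, thus differed in 9 of these 12 genes, where 45.7% of all genes differed. A link to the receptor was not tested.

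Of 4 genes known to act downstream of RANK in the gland, 3 were tested between lineages. Elf5, the alveolar transcription factor, was higher in LP than in basal (log2 difference 7.71, edgeR adjusted p = 3.14e-08) and ML cells (-6.01, adjusted p = 7.26e-08). Id2, an inhibitor of DNA binding, was lower in ML than in LP cells (-2.62, adjusted p = 0.000277), and Ccnd1, cyclin D1, was higher in LP than in basal cells (1.38, adjusted p = 0.000718). Rspo1, which encodes R-spondin 1, did not pass the filter. It had 12 counts in puberty LP cells, 3 in estrus and 486 in diestrus, or 2.01, 1.70 and 177 CPM. Rspo1 in diestrus LP cells was 104 times its estrus level (35.4 to 507) and 87.9 times its puberty level (49.8 to 171), where 8.05% and 5.61% of all genes were at least 2-fold higher.

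Ccnd1 in basal cells was at 134 CPM in puberty, 37.5 CPM in estrus and 148 CPM in diestrus, with a ratio of 3.96 for diestrus over estrus (3.36 to 4.69). In LP cells that ratio was 2.15 (1.88 to 2.48). Estrus was thus the lowest library for Ccnd1 in basal cells, where 5.89% of all genes were at least 2-fold higher in diestrus than in estrus. In ML cells the level of Id2 was 77.9, 20.1 and 34.1 CPM.

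Hormone-sensing genes marked the lineage of the ligand. Of 9 genes 8 were tested, of which 8 were higher in ML than in basal cells and 6 higher in ML than in LP cells, with medians of 3.83 and 3.88 on the log2 scale, where 25.7% and 19.1% of all genes were called in these directions. Stat5b, which encodes a relative of Stat5a, was higher in LP than in ML cells (-0.60, edgeR adjusted p = 0.0398). Between diestrus and estrus ML cells, 3 of 9 were at least 2-fold higher and 0 lower (5.23% and 4.09% of all genes). Calca, with 0 counts in puberty and estrus ML cells and 1175 in diestrus, was at least 495-fold higher than in estrus. Areg was at 3168, 592 and 1861 CPM in ML cells of puberty, estrus and diestrus, Stat5a, a mediator of prolactin, at 63.3, 27.0 and 61.6 CPM, and Wnt4 at 41.1, 39.1 and 64.5 CPM. Pgr was at 52.0, 20.6 and 32.7 CPM. Areg, Stat5a, Pgr and, by little, Wnt4 were lowest in estrus, as Tnfsf11 was. Unlike Tnfsf11, Areg, Pgr and, by little, Stat5a were higher in puberty than in diestrus. Other genes of the list had another order. Prlr (938, 1330 and 901 CPM) and Foxa1 (50.6, 76.2 and 59.3 CPM) were highest in estrus. Esr1 (26.1, 24.0 and 21.7 CPM) and Stat5b (13.1, 12.4 and 11.6 CPM) were lowest in diestrus.

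**Figure D5:**
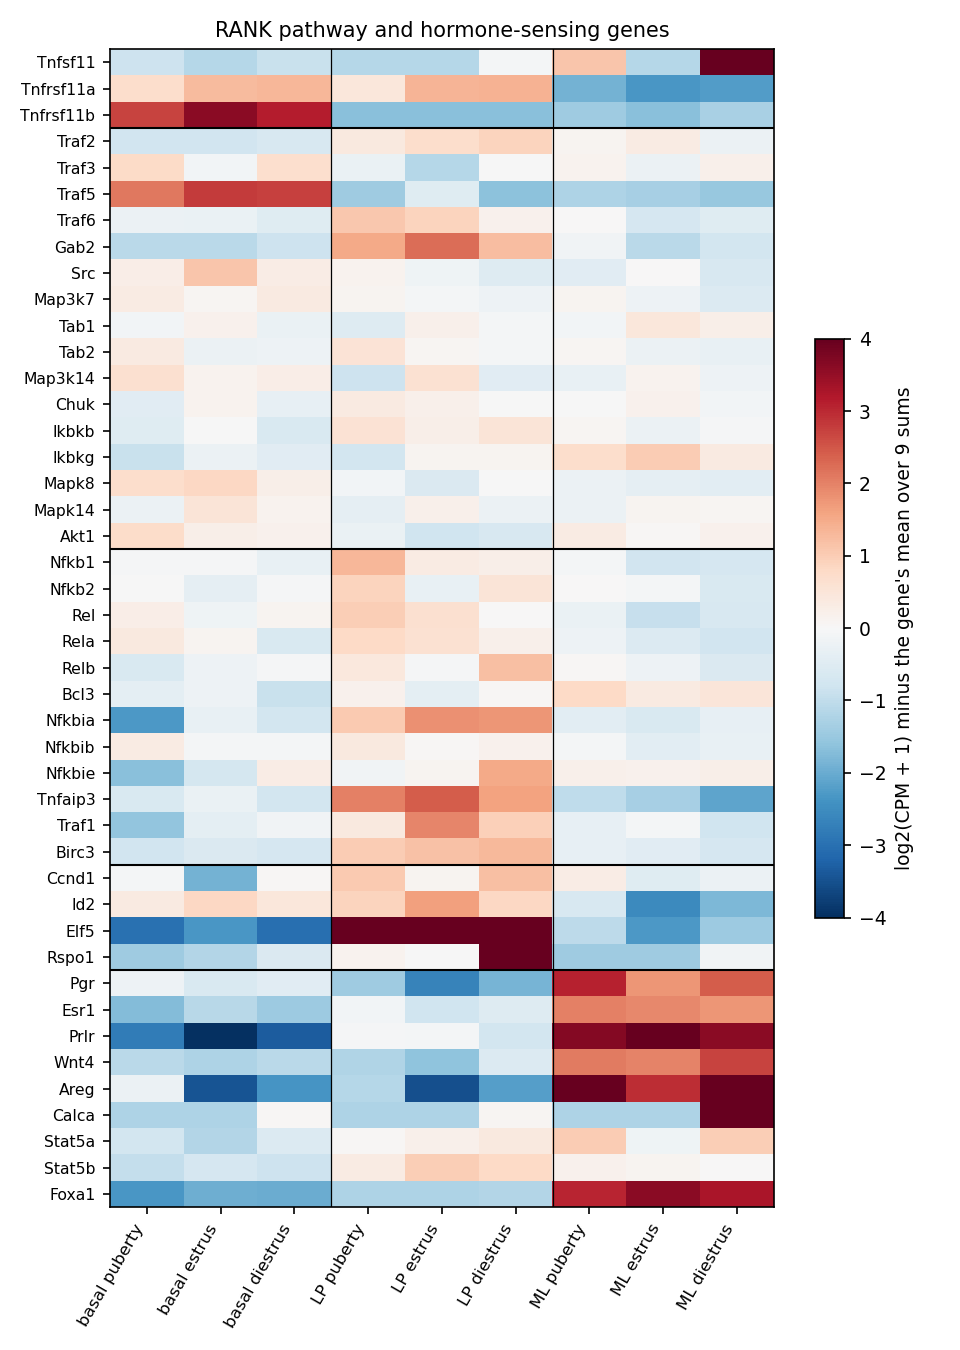
Levels of the 3 members and of the adaptor and kinase, NF-kB, downstream and hormone-sensing lists in basal, LP and ML cells of each library, as log2(CPM + 1) minus the gene's mean over the 9 summed profiles, with colors limited to -4 and 4. Tnfrsf11b and Traf5 were high in the basal columns, Elf5 and Tnfaip3 in the LP columns, and Tnfsf11 and Calca in the diestrus ML column.

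Among other binding partners, Lgr4, a receptor reported to bind RANKL, was at 4.72, 4.35 and 3.40 CPM in basal cells and was lower in ML (log2 difference -3.51, edgeR adjusted p = 0.000533) and LP cells (-2.24, adjusted p = 0.0106). Tnfsf10, which encodes TRAIL, a further ligand of osteoprotegerin, did not pass the filter and was under 2 CPM in each lineage.

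The wider TNF family was mostly below the filter, with 5 of 17 other ligands and 11 of 22 other receptors tested. Tnf itself was higher in LP than in basal cells (log2 difference 5.41, SE 0.342, edgeR adjusted p = 2.61e-07) and higher in LP than in ML cells (-3.25, SE 0.269, adjusted p = 2.80e-06). Among the 3 lineages Cd70 had counts only in basal cells, at 8.20, 9.11 and 23.2 CPM, and 0 in LP and ML cells of each library. Ngfr, the low-affinity neurotrophin receptor, was lower in ML than in basal cells (-5.73, adjusted p = 1.14e-05), and Fas was lower in ML than in LP cells (-4.01, adjusted p = 2.39e-05). Of the 11 receptors, 2 were higher in ML and 6 higher in basal cells, where 25.7% and 29.9% of all genes were called, and 0 were higher in LP and 5 higher in basal cells, where 22.4% and 23.3% were. Of the 5 ligands, 2 were higher in LP and 3 higher in basal cells, and 2 and 2 differed in each direction between ML and basal cells, beside the same shares of all genes.

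The genes with the most similar pattern to each member were found by Pearson correlation of log2(CPM + 1) over the 9 summed profiles, among 11813 genes with at least 50 counts. The profiles share libraries and lineages, and the values describe likeness only. Tnfsf11 was closest to H19 (r = 0.982), Tubb4a (0.968), Hba-a2 (0.964), Calca (0.925) and Mrps27 (0.920). Tnfrsf11a was closest to Casp1 (0.987), Prcp (0.987), Gdpd5 (0.985), Gprc5b (0.984) and Pdlim3 (0.979), and Tnfrsf11b to Tenm2, Gm29157, Col5a2, Nrgn and Gm21190 (0.997 to 0.998). Among the members, r was -0.598 between the ligand and the receptor, -0.292 between the ligand and the decoy receptor and 0.471 between the receptor and the decoy receptor.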

How the data were processed

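The authors captured Lin-CD24+ cells on a 10x Chromium machine, sequenced 3′ libraries on an Illumina instrument and made count tables with Cell Ranger 2.0 on mm10, per the labels and the methods. The deposited values are raw counts of molecules per gene and barcode, used as deposited. The 4 tables gave 3 libraries, because the puberty tables shared their barcodes. The genes, lists and comparisons were chosen with earlier results of these data known.

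Cells with a count for at least 3 markers of an immune, endothelial, fibroblast or red cell list were candidates to be set aside. They were set aside where the mean log-normalized level of that list was above that of the epithelial markers. Seed cells led by a z-score of 1 over 8 markers gave signatures of up to 100 genes (at least 2-fold higher in each library, in at least 10% of seeds), and each cell was placed by the share of signature genes detected. No doublets were removed in the main analysis; cells between basal and luminal were a class of their own (mixed), and Scrublet, which called 2.13%, 1.14% and 0.861% of cells in puberty, estrus and diestrus, was an alternative. Clusters came from scanpy 1.11.5 (30 principal components, 15 neighbors, Leiden resolution 1). Counts were summed over 3 lineages and 3 libraries and tested with edgeR 4.0.16 in R 4.3.3 (filterByExpr, TMM, library as block, quasi-likelihood F test, Benjamini-Hochberg, threshold 0.05). SE is the size of the log2 difference over the square root of F. Exact intervals used scipy 1.17.1. The scripts were tested on simulated counts. A floor is 3 counts. Libraries were compared as ratios of TMM-scaled sums with no test, over genes with at least 20 counts in the 2 sums. Thinning drew 2000 counts per cell (3000 as an alternative) and left out shallower cells.

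Named genes were the 3 members, up to 3 genes per list and direction past the threshold with the largest change, list genes past a 2-fold difference between libraries, the 5 genes most like each member, and the 10 genes per direction that differed most with detection of a member, among genes in at least 5% of thinned cells. Examples from the lists were selected among these. Positions came from the GRCm38 annotation and upstream sequence from RefSeq, which had an entry for Tnfsf11 and Tnfrsf11a. Alternatives were the other puberty table or both summed, clusters in place of signatures, stricter cells (at least 1000 genes and under 10% mitochondrial counts), no doublets, no cycling cells, no filter, library totals, no block, DESeq2 1.42.0 and leaving out each library.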

Additional observations from a re-analysis of the deposited data

How the results depend on the processing

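Between lineages, 116 of 120 alternative values of the members kept direction and side of the threshold, 2 lost the call and 2 changed sign. For Tnfsf11 this tally holds 15 of 18 settings per comparison, since the gene did not pass the filter in the others. Of the named list genes, 1169 values kept both and 113 lost the call. Of the shares of cells with a count, 87 moved by less than their interval and 21 by more, under thinning, the second puberty table, stricter cells or without cycling cells. For example, Tnfrsf11b in puberty basal cells went from 4.64% to 2.98% without cycling cells and to 6.88% with stricter cells. Of the ratios between libraries, 94 stayed and 2 moved. DESeq2 gave Tnfsf11 log2 differences of 5.13 (adjusted p = 0.0871) for ML against LP and 5.02 (adjusted p = 0.0735) for ML against basal. Tnfrsf11a for LP against basal, not called in any setting, changed sign without the puberty library, to 0.10 (adjusted p = 0.815), and to 0.090 (not called) with no filter as well. The cause was not tested. No paired analysis beyond the library block was possible, because each stage had 1 library. Without the replicate block 2923 genes were called between ML and LP, against 4683, and 3530 between LP and basal, against 5304, and Tnfsf11 did not pass the filter, nor did it without the puberty or the diestrus library. Library totals in place of TMM changed the split to 2921 higher in ML and 1843 higher in LP (from 2215 and 2468) and to 1927 higher in LP and 3484 higher in basal (from 2600 and 2704). Leaving out each library in turn, with or without the filter, gave 3264 to 4288 genes for ML against LP, 5130 to 6200 for ML against basal and 3912 to 4758 for LP against basal. It gave Tnfrsf11a log2 differences of -0.14 to 0.10 for LP against basal. Without cycling cells the lower bound for Tnfsf11 in diestrus over estrus ML cells was 99.2-fold, and with library totals 105-fold, against 121-fold.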
